A study of Mus musculus with 4 samples.

Results

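Long intergenic RNAs are transcripts made from genes that lie between protein-coding genes and code for no known protein. Some act where they are made, on the genes beside them, and others build nuclear bodies, bind proteins or microRNAs, or are processed into small RNAs. They are usually less abundant than messenger RNAs, many stay in the nucleus, and their levels depend strongly on cell type. In vessels they are known from host genes of vascular microRNAs and from a few RNAs named for roles in heart and smooth muscle.

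The long intergenic RNAs described here were chosen by their deposited annotation and their read number. Of 484 genes classed as lincRNA in the tables of both stages, 178 had at least 100 reads summed over the 4 libraries. The 5 of these on the X chromosome and 2 imprinted genes left out by name were set aside, which leaves 171 of the 16181 genes listed in both tables. Another 302 lincRNA genes outside the left-out ones stayed under 100 reads. Just inside the minimum were Gm14168 and AC152827.1 with 100 reads and D230017M19Rik with 101, and just outside it C920006O11Rik and Mir124-2hg with 99 and Gm9801 with 98. The minimum acts on the sum of all libraries, so a gene at 0 in a library passed through the other 3, and levels themselves were part of the choice. A further 252 lincRNA genes stand in the E15 table alone, of which 0 reached 100 reads, and 146 in the E18 table alone, of which 1 did.

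The series holds RNA sequencing of brain endothelial cells of C57BL/6 mouse embryos at embryonic days 18 and 15 (E18 and E15). At each stage UCP2ECKO embryos, which carry floxed Ucp2 with Cre recombinase under the Tie2 promoter, were set against wild-type (WT) embryos. Ucp2 encodes a carrier of the inner mitochondrial membrane, and the Tie2 promoter is active in endothelial cells and in most blood cells. The 4 groups hold 1 library each, although the design text of the series speaks of triplicates, and the labels do not say how many embryos a library pools. Every ratio below therefore compares 2 libraries with no replicate check, and every interval covers counting error only.

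The libraries held 21992660 reads in the knockout and 19075407 in the wild type at E18, and 16328300 in the knockout and 15542930 in the wild type at E15. Ucp2 had 3296 reads in the knockout and 6696 in the wild type at E18, and 2666 in the knockout and 4285 in the wild type at E15. All 11 endothelial markers were detected in every library, with summed levels of 17738 CPM (reads scaled to library totals) in the knockout and 17044 in the wild type at E18, and 17930 in the knockout and 15251 in the wild type at E15. Markers of mural cells, the contractile cells around vessels, (all 8 detected) were present as well, at 10789 CPM in the knockout and 8682 in the wild type at E18, and 4488 in the knockout and 6825 in the wild type at E15. The 9 microglia and macrophage markers, 1 of them at 0 in the wild type at E18, summed to 64.3 CPM in the knockout and 37.4 in the wild type at E18, against 279 in the knockout and 588 in the wild type at E15. The 9 neuronal markers, 1 of them at 0 in the knockout at E18, summed to 47.8 to 111 CPM, with the highest value in the wild type at E15. At E18 the knockout library had 547 reads of Xist and 0 of the Y-linked Ddx3y, against 0 of Xist and 5826 of Ddx3y in the wild type, so these 2 libraries also differed in sex-linked transcripts. Xist had 2109 reads in the knockout and 2549 in the wild type at E15. The libraries of E18 and E15 therefore differed in Xist in both genotypes. Its level was 24.9 CPM at E18 and 129 at E15 in the knockout, and 0 and 164 in the wild type. In such bulk libraries, fewer cells of a type and less RNA per cell cannot be told apart.

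The 171 long intergenic RNAs took a small part of the reads, and most were weakly expressed. They held 0.200% of all reads in the knockout (exact 95% binomial interval 0.198% to 0.201%) and 0.229% in the wild type (0.227% to 0.231%) at E18. At E15 they held 0.389% in the knockout (0.386% to 0.392%) and 0.342% in the wild type (0.339% to 0.345%). Over the 4 libraries 83 genes had under 200 reads and 22 had 1000 or more, with a median of 207. Per length, which allows genes to be compared, the median level was 1.42 RPKM, which is CPM divided by the kilobases of exon, averaged over the 4 libraries. Protein-coding genes under the same minimum had a median of 5.59, and 14 of the 171 reached 10.

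Gm26917 (ENSMUSG00000097971, chromosome 17, 39843013 to 39846341, plus strand) alone set much of the total. It had 10138 reads in the knockout and 11971 in the wild type at E18, and 32371 in the knockout and 24998 in the wild type at E15. That is 23.1% and 27.4% of all long intergenic reads in the knockout and the wild type at E18, and 51.0% and 47.1% in the knockout and the wild type at E15. The gene lies beside the annotated ribosomal RNA gene CT010467.1, which had 5181 reads in the knockout and 7212 in the wild type at E18, and 9721 in the knockout and 16578 in the wild type at E15. Both were lower at E18 than at E15 in either genotype, while the order of the genotypes at E15 was opposite for the 2 genes. Without Gm26917 the others took 0.153% of reads in the knockout and 0.166% in the wild type at E18, and 0.191% in the knockout and 0.181% in the wild type at E15. How much of this reading comes from ribosomal RNA left in a library was not tested.

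Among the abundant members, the known RNAs of the cytoplasm differed little between genotypes. 1700020I14Rik (ENSMUSG00000085438, chromosome 2, 119594297 to 119607502) is Cyrano, which binds the microRNA miR-7 and leads to its destruction. It had 241 CPM in the knockout and 251 in the wild type at E18, and 189 in the knockout and 197 in the wild type at E15. The knockout and wild-type values differed by a log2 ratio of -0.06 at both stages, and E18 stood above E15 by 0.35 in the knockout and 0.35 in the wild type. 2900097C17Rik (ENSMUSG00000102869, chromosome 2, 156388065 to 156392979) is the mouse Norad gene, a sponge for Pumilio RNA-binding proteins. Its level was 198 CPM in the knockout and 185 in the wild type at E18, and 213 in the knockout and 244 in the wild type at E15, so that every library lay within a narrow band. 9530082P21Rik, which overlaps Flywch1 and Kremen2, had 178 CPM in the knockout and 156 in the wild type at E18, and 127 in the knockout and 97.0 in the wild type at E15. Its knockout value was the higher one at each stage, by log2 ratios of 0.19 at E18 (95% interval 0.12 to 0.26) and 0.39 at E15 (0.30 to 0.49). C330006A16Rik had 122 CPM in the knockout and 118 in the wild type at E18, and 149 in the knockout and 106 in the wild type at E15. 1810058I24Rik, 5031425E22Rik and Gm37494 stayed between 24.6 and 45.3 CPM in all libraries, and none of them was past 2-fold in any comparison.

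**Figure D1:**
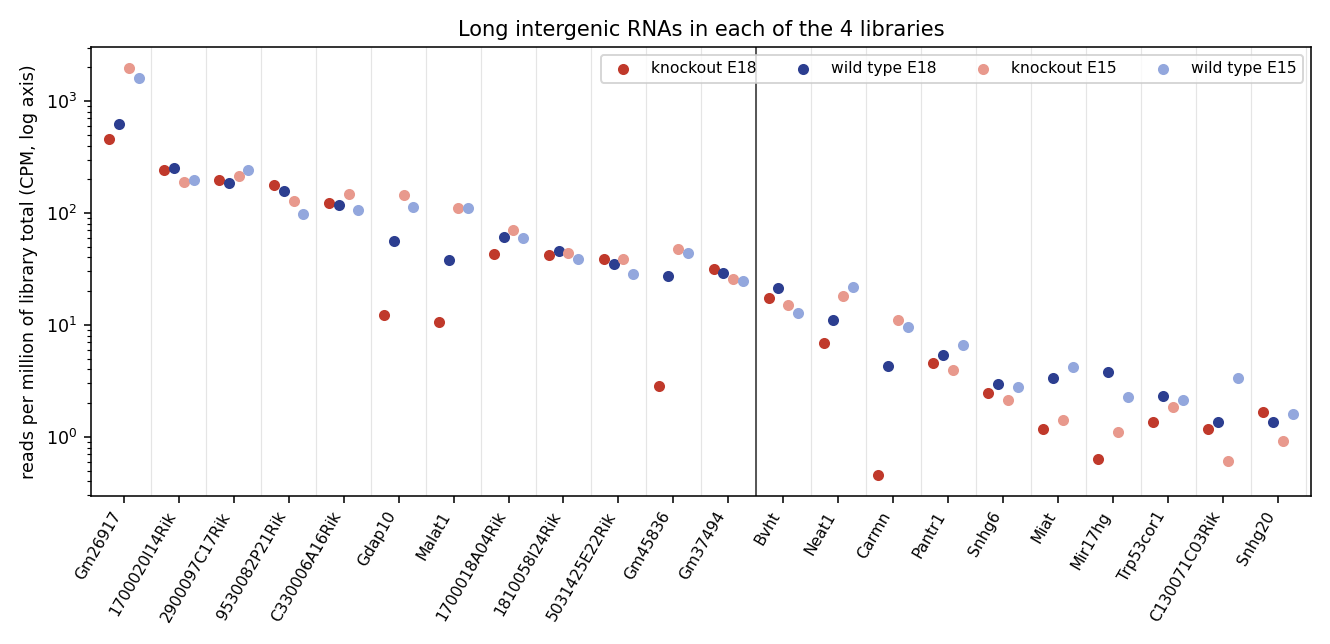
Level of each named long intergenic RNA in CPM (vertical log axis), 1 point per library and no error bars because each group is 1 library; left of the line are the 12 most abundant, right of it the further members of lists of known long RNAs. Malat1, Gdap10, Gm45836 and Carmn are lowest in the knockout library at E18, whereas 1700020I14Rik, 2900097C17Rik and 1810058I24Rik lie close together.

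Known RNAs were followed by role. Of 11 listed nuclear and architectural RNAs, 5 were members: Malat1, Neat1, Miat, 2900097C17Rik and 1700020I14Rik. The RNAs 2900097C17Rik and 1700020I14Rik, given above as RNAs of the cytoplasm, were not past 2-fold in any comparison. Their stage ratios were -0.11 and 0.35 in the knockout, and -0.40 and 0.35 in the wild type. Miat is given below with the neural RNAs, and Malat1 and Neat1 are given here. Malat1 (ENSMUSG00000092341, chromosome 19, 5795690 to 5802672, minus strand), which gathers at nuclear speckles and whose mature end carries no poly(A) tail, had 232 reads in the knockout and 718 in the wild type at E18. At E15 it had 1823 reads in the knockout and 1706 in the wild type. The genotypes lay apart at E18, with a log2 ratio of -1.74 (95% interval -2.06 to -1.62), and together at E15, with 0.02 (-0.07 to 0.12). Both genotypes had less at E18 than at E15, by log2 ratios of -3.29 in the knockout and -1.52 in the wild type. Neat1, the scaffold of paraspeckles and the neighbour of Malat1, had 152 reads in the knockout and 213 in the wild type at E18, and 297 in the knockout and 338 in the wild type at E15. Its stage ratios were -1.28 in the knockout and -0.90 in the wild type, and its genotype ratios -0.62 at E18 and -0.25 at E15.

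Malat1's promoter is shown because its RNA is the most abundant of the named nuclear RNAs that was past 2-fold with stage in both genotypes. The window runs from 250 bases before to 50 after the RefSeq start, which is the start in the deposited table (GRCm38.p6, chr19:5802623-5802922, minus strand, written 5′ to 3′). Capitals mark the cyclic AMP response element half-site TGACGT, searched on both strands.
Malat1: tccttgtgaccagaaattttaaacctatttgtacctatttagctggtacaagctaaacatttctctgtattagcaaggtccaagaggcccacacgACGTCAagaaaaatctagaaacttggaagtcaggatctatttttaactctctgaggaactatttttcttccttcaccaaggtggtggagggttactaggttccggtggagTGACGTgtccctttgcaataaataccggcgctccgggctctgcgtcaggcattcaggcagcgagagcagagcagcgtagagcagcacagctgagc
The half-site occurred 2 times in this window, and 7.51% of all 32851 RefSeq promoter windows hold it at least once. The window held, on either strand, no TATA box (searched as TATAAA), no AP-1 site (searched as TGACTCA), no GC box (searched as GGGCGG), no CCAAT box, no ETS site (searched as CCGGAAG) and no CArG box. None of these motifs contains another, and a match is only a match of letters.

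Of 17 listed RNAs best known from neural tissue, 3 were members. Miat, a nuclear RNA of neurons and retina also described in endothelium, had 26 reads in the knockout and 64 in the wild type at E18, and 23 in the knockout and 66 in the wild type at E15. Knockout reads were thus below wild-type reads at each stage, with log2 ratios of -0.998 at E18 (95% interval -2.22 to -0.83) and -1.12 at E15 (-2.34 to -0.89). At E18 the ratio fell just short of the 2-fold threshold (log2 of 1 on CPM plus 1). C130071C03Rik, the host of a miR-9 precursor beside Mef2c, had 26 reads in each library at E18, and 10 in the knockout and 52 in the wild type at E15. Pantr1, which is made from the other strand beside the neural transcription factor gene Pou3f3, had 100 reads in the knockout and 102 in the wild type at E18, and 65 in the knockout and 103 in the wild type at E15. All 3 were lower in the knockout than in the wild type at E15, the stage at which summed neuronal markers were 58.2 CPM in the knockout and 110.6 in the wild type. The part of other cells in these values was not tested.

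Of 12 listed mesenchymal and cardiovascular RNAs, Bvht and Carmn were members, and they gave unlike values although they are neighbours. Bvht (Braveheart, needed for cardiac commitment of mouse embryonic stem cells) had 381 reads in the knockout and 405 in the wild type at E18, and 248 in the knockout and 199 in the wild type at E15. Carmn, host of miR-143 and miR-145 and a smooth muscle RNA, had 10 reads in the knockout and 82 in the wild type at E18, and 181 in the knockout and 148 in the wild type at E15. The Carmn ratio was -1.86 at E18 (95% interval -4.35 to -2.29) and 0.20 at E15 (-0.10 to 0.54). Ratios are of CPM plus 1, while intervals belong to the scaled reads alone, which is why the interval of a gene with few reads need not include its ratio. The 8 mural markers summed to 10789 CPM in the knockout and 8682 in the wild type at E18, most of it Rgs5 with 8764 CPM in the knockout and 6910 in the wild type, and their median log2 ratio was 0.09. The part of mural cells in the Carmn values was not tested.

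Mir17hg, the host of the miR-17 cluster, which is known for roles in proliferation and vessel growth, had 14 reads in the knockout and 72 in the wild type at E18. At E15 it had 18 reads in the knockout and 35 in the wild type. The knockout was below the wild type at both stages, past 2-fold at E18 with -1.54 (95% interval -3.51 to -1.73) and not at E15 with -0.63 (-1.94 to -0.17). Of the 16 listed microRNA host genes, it and Carmn were the members. The 6 mature microRNAs below are shown because they are cut from this transcript, and the data give the host's reads, not the microRNAs themselves. All lie within Mir17hg on the plus strand of chromosome 14 (RefSeq, GRCm38.p6), and capitals mark the seed, bases 2 to 8, which pairs with targets.
miR-17-5p: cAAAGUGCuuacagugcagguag
miR-18a-5p: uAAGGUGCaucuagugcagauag
miR-19a-3p: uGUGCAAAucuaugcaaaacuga
miR-20a-5p: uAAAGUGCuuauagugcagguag
miR-19b-3p: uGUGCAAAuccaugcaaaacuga
miR-92a-3p: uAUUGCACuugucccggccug
The 6 carry 4 different seeds. miR-17-5p and miR-20a-5p share 1 seed, miR-19a-3p and miR-19b-3p share another, and miR-18a-5p and miR-92a-3p have a seed of their own within the cluster.

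Small nucleolar RNA hosts, whose introns carry guides for ribosomal RNA modification, were represented by Snhg6 and Snhg20 out of 19 listed. Snhg6 had 54 reads in the knockout and 57 in the wild type at E18, and 35 in the knockout and 43 in the wild type at E15. Snhg20 had 37 reads in the knockout and 26 in the wild type at E18, and 15 in the knockout and 25 in the wild type at E15. Neither was past 2-fold in any of the 4 comparisons. The same held for Trp53cor1, a p53 target beside Cdkn1a, which with Neat1 was a member out of 9 listed RNAs induced by stress, p53 or cytokines. Trp53cor1 had 30 reads in the knockout and 44 in the wild type at E18, and 30 in the knockout and 33 in the wild type at E15. Its neighbour Cdkn1a had 10281 reads in the knockout and 7073 in the wild type at E18, and 3639 in the knockout and 2646 in the wild type at E15.

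At E18, 27 long intergenic RNAs were 2-fold lower in the knockout than in the wild type and 8 were 2-fold higher. These are 15.8% and 4.68% of the 171, beside 4.4% lower and 2.75% higher among all 12489 genes with at least 100 reads. Few reads widen ratios, so genes under 1000 reads are the nearer background, and of these 10.1% were lower and 5.94% higher, beside 16.1% and 5.37% of the 149 long intergenic RNAs in that range. The median log2 ratio of the 171 was -0.13 (95% interval of the median -0.28 to 0.02), against 0.00 for all genes. In 24 of the 27 the whole counting interval lay past 2-fold, as it did in 6 of the 8.

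Gm45836 (ENSMUSG00000110631, chromosome 8, 121833247 to 121841178) is a spliced RNA of no known role that overlaps the coding gene Gm20388 on the same strand. It had the lowest ratio, with 62 reads in the knockout and 521 in the wild type at E18, and 774 in the knockout and 684 in the wild type at E15. Its log2 ratio was -2.89 at E18 (95% interval -3.68 to -2.89) and 0.10 at E15 (-0.04 to 0.26). Gdap10, a transcript inside the Nampt gene on the same strand, had 268 reads in the knockout and 1075 in the wild type at E18, against 2368 in the knockout and 1761 in the wild type at E15. The library of the knockout at E18 stood below the other 3 in both RNAs. Nampt itself, which encodes an enzyme of NAD synthesis, had 9312 reads in the knockout and 7544 in the wild type at E18, and 6253 in the knockout and 5144 in the wild type at E15. Its genotype ratios were 0.10 at E18 and 0.21 at E15, so the coding gene did not share the lower value of the RNA within it.

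Gm26802 (ENSMUSG00000097266, chromosome 7, 19298260 to 19300770, minus strand) lies 1926 bases past the end of Fosb, on the same strand. Fosb is an AP-1 transcription factor gene of the early response, and Gm26802 had few reads beside it. Gm26802 had 7 reads in the knockout and 135 in the wild type at E18, and 37 in the knockout and 47 in the wild type at E15. Fosb had 8394 reads in the knockout and 21964 in the wild type at E18, and 5050 in the knockout and 7281 in the wild type at E15. The E18 genotype ratio was -2.62 for Gm26802 (95% interval -5.82 to -3.39) and -1.59 for Fosb (-1.63 to -1.56), and in both genes the wild-type library at E18 was the highest of the 4. With stage, Gm26802 went past 2-fold downwards in the knockout (-1.31) and past 2-fold upwards in the wild type (1.01), while Fosb had 0.30 in the knockout and 1.30 in the wild type. The promoter window of Gm26802 is shown for this reason (RefSeq, GRCm38.p6, chr7:19300744-19301043, minus strand), with the TATA box letters TATAAA in capitals.
Gm26802: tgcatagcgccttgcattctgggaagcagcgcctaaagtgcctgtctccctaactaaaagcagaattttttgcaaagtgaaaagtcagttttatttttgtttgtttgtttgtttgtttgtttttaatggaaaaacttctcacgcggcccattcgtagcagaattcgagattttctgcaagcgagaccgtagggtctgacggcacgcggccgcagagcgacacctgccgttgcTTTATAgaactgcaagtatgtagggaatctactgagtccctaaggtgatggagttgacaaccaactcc
The match, on the strand opposite to the one written, was the only one of the searched motifs in this window, and 13.6% of all promoter windows hold it.

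Zero reads in the knockout library at E18 were found for 11 of the 171 genes, against 1 in the wild type at E18 and 0 in the libraries of either genotype at E15. That is 6.43%, beside 1.12% of all 12489 genes, 2.98% of all genes under 1000 reads and 7.38% of the 149 long intergenic RNAs in that range. A count of 0 there allows up to 3 reads, or 0.136 CPM. The 11 had 11 to 59 reads in the wild type at E18, and 25 to 125 in the knockout and 20 to 87 in the wild type at E15. Named after their counts were seen, they are 1700056N10Rik, 1700112J16Rik, 2700038G22Rik, 9330104G04Rik, B830012L14Rik, Gm15728, Gm26601, Gm26742, Gm26772, Gm26835 and Gm36445. Gm36445 had 0 reads in the knockout and 59 in the wild type at E18, at least 22.7-fold lower in the knockout, and 81 in the knockout and 44 in the wild type at E15. Gm26601, inside Dip2c, had 0 reads in the knockout and 54 in the wild type at E18, at least 20.8-fold lower in the knockout, and 85 in the knockout and 87 in the wild type at E15. B830012L14Rik, in the imprinted region of chromosome 12 that also holds Meg3, had 0 reads in the knockout and 52 in the wild type at E18. At E15 it had 125 reads in the knockout and 59 in the wild type, so that the knockout was at least 56.1-fold lower at E18 than at E15. The 1 gene at 0 in the wild type at E18 was Gm13291, with 40 reads in the knockout, at least 11.6-fold higher in the knockout, beside 48 in the knockout and 63 in the wild type at E15.

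**Figure D2:**
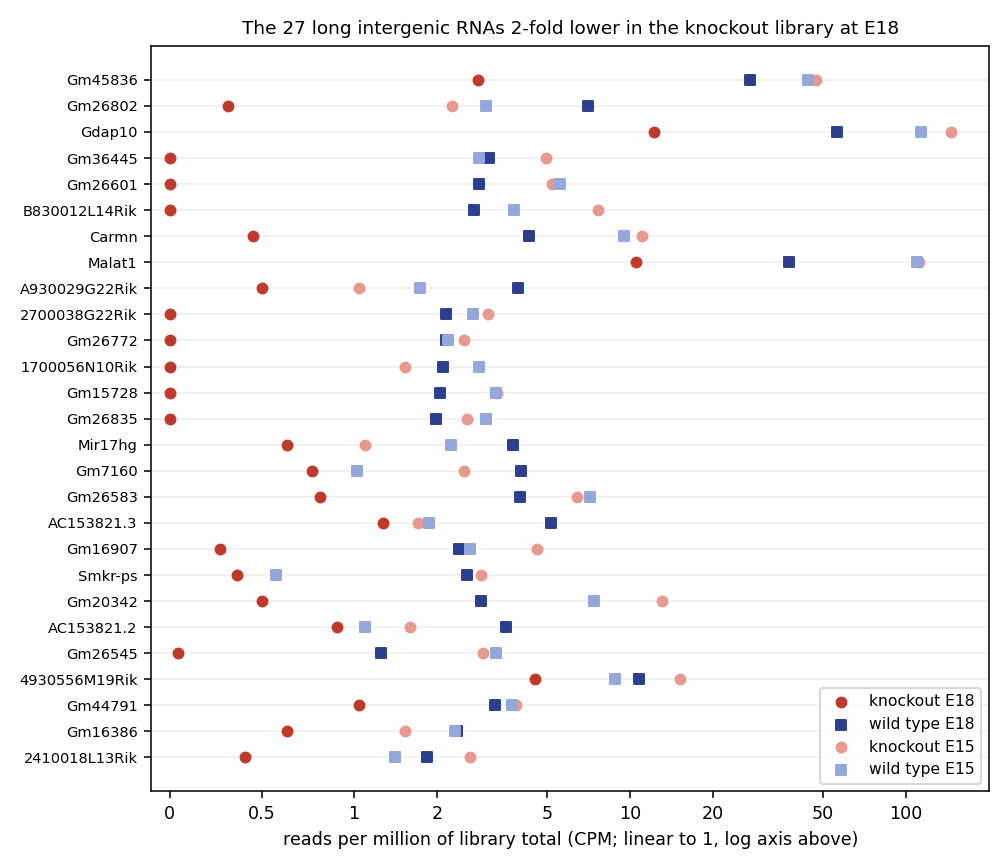
The 27 long intergenic RNAs 2-fold lower in the knockout library at E18 (rows, ordered by their ratio) in CPM (horizontal axis, linear up to 1 and logarithmic above); circles are knockout and squares wild-type libraries, dark at E18 and pale at E15, 1 library per group. The dark circles lie left of the other points in every row, and 8 of them lie at 0.

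BC043934, a single-exon transcript 32799 bases from Rnf7, had the highest ratio of the 8 higher RNAs at E18. It had 89 reads in the knockout and 9 in the wild type at E18, and 61 in the knockout and 53 in the wild type at E15. Its log2 ratio was 1.78 at E18 (95% interval 2.11 to 4.28) and 0.10 at E15 (-0.42 to 0.69), and the wild-type library at E18 was the low one. 2900052N01Rik had 72 reads in the knockout and 7 in the wild type at E18, and 5 in the knockout and 18 in the wild type at E15. AC147634.1 had 168 reads in the knockout and 34 in the wild type at E18, and 74 in the knockout and 48 in the wild type at E15. In both of these RNAs the knockout library at E18 was the highest of the 4. D230017M19Rik, with 58 reads in the knockout and 12 in the wild type at E18, had 19 in the knockout and 12 in the wild type at E15.

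At E15, 9 long intergenic RNAs were 2-fold higher and 11 were 2-fold lower in the knockout than in the wild type. These are 5.26% and 6.43%, beside 3.42% higher and 3.23% lower among all genes, and beside 6.28% and 7.43% among genes under 1000 reads, which is about the same share. The median log2 ratio was 0.05, against -0.01 for all genes. The highest ratio was that of Fam120aos, which starts head to head with Fam120a, an RNA-binding protein gene. It had 69 reads in the knockout and 28 in the wild type at E18, and 62 in the knockout and 12 in the wild type at E15. Its genotype ratio was 0.75 at E18 (95% interval 0.44 to 1.78) and 1.44 at E15 (1.39 to 3.33). Gm14168 had 40 reads in the knockout and 5 in the wild type at E15, 4930425O10Rik 121 in the knockout and 36 in the wild type, and Gm26840 68 in the knockout and 17 in the wild type. At E18 the same 3 had ratios of -0.82, 0.47 and 0.72, none of them past 2-fold. Gm26742 had 71 reads in the knockout and 20 in the wild type at E15.

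The lowest ratios at E15 came from libraries with few reads in the knockout. Gm9968, inside Zbtb20, had 37 reads in the knockout and 33 in the wild type at E18, and 2 in the knockout and 56 in the wild type at E15. Its E15 log2 ratio was -2.04, with a counting interval from -7.96 to -2.96. Gm3716 had 108 reads in the knockout and 58 in the wild type at E18, and 10 in the knockout and 81 in the wild type at E15. 4833418N02Rik, head to head with Ttc7, had 117 reads in the knockout and 61 in the wild type at E18, and 15 in the knockout and 71 in the wild type at E15. 1700036A12Rik had 82 reads in the knockout and 32 in the wild type at E18, and 15 in the knockout and 66 in the wild type at E15. In Gm3716, 4833418N02Rik and 1700036A12Rik the order of the genotypes at E18 was opposite to that at E15, without reaching 2-fold at E18. BC002059, whose nearest coding gene is Zfp960, had 102 reads in the knockout and 132 in the wild type at E18, and 90 in the knockout and 243 in the wild type at E15.

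**Figure D3:**
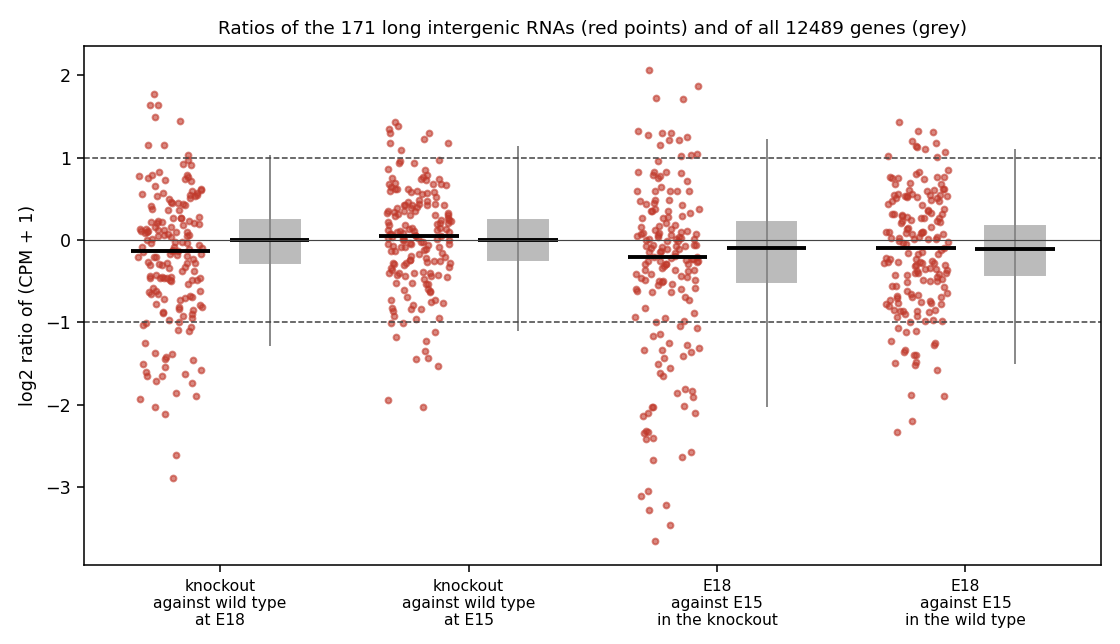
Log2 ratio of CPM plus 1 in the 4 comparisons: red points are the 171 long intergenic RNAs with their median as a black line, grey bars span the middle 50% and thin lines the middle 95% of all 12489 genes. Dashed lines mark 2-fold; the points run from -2.89 to 1.78 for genotype at E18, from -2.04 to 1.44 for genotype at E15, from -3.66 to 2.07 for stage in the knockout and from -2.34 to 1.43 for stage in the wild type.

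Across stages, Gm17745 was 2-fold higher in the knockout at both, 1 of the 171 beside 0.36% of all genes, and 0 were 2-fold lower at both, beside 0.416% of all genes. It had 170 reads in the knockout and 42 in the wild type at E18, and 54 in the knockout and 14 in the wild type at E15. The ratios were 1.45 at E18 (95% interval 1.32 to 2.34) and 1.18 at E15 (1.01 to 2.84). Gm17745 (ENSMUSG00000110647, chromosome 10, 93335393 to 93348877) lies 24258 bases from Elk3, an Ets repressor gene of endothelium, which had genotype ratios of 0.15 at E18 and -0.14 at E15. AC161054.2, chosen after its values were seen because it is the nearest long intergenic RNA to Gm17745, had 208 reads in the knockout and 163 in the wild type at E18, and 148 in the knockout and 194 in the wild type at E15. Of the 171, 118 were past 2-fold at neither stage.

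The additive test asked whether a genotype difference was shared by both stages, with stage and genotype as terms over all 4 libraries. By edgeR's quasi-likelihood test with Benjamini-Hochberg adjustment over 12489 genes, 0 long intergenic RNAs were higher and 0 were lower in the knockout, beside 0.024% and 0% of all genes. At an unadjusted p under 0.05 it gave 1 higher and 1 lower, and DESeq2 gave 0 and 0 after adjustment, with 1 and 4 unadjusted. The lowest adjusted p of the 171 in edgeR's quasi-likelihood test was 0.842, that of Gm17745, with a fitted log2 difference of 1.84. The fit has 1 residual degree of freedom, set by how far the genotypes differ unequally at E18 and E15, so a difference seen at 1 stage counts as noise in it.

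**Figure D4:**
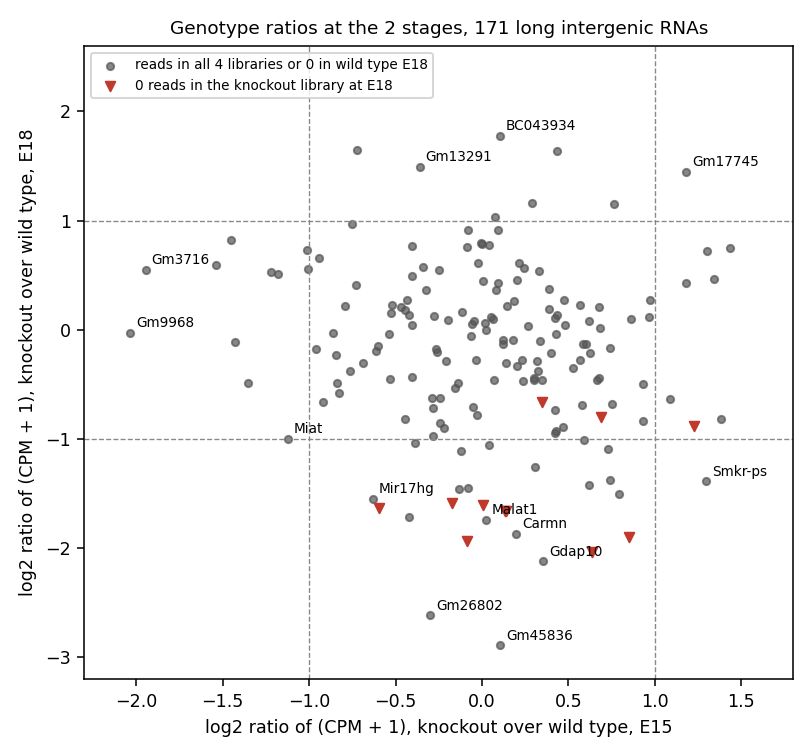
Log2 ratio of CPM plus 1, knockout over wild type, at E15 (horizontal) and E18 (vertical) for the 171 long intergenic RNAs, 1 point each; red triangles had 0 reads in the knockout library at E18 and dashed lines mark 2-fold. Gm17745 is alone in the upper right corner and Smkr-ps alone in the lower right, and the lower middle holds Gm45836, Gm26802, Gdap10, Carmn and Malat1, which lay between -0.30 and 0.35 at E15.

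Between stages, more long intergenic RNAs were lower than higher at E18, which was also so among all genes and among genes under 1000 reads. In the knockout 40 were 2-fold lower and 15 were 2-fold higher at E18 than at E15, 23.4% and 8.77% of the 171. All genes gave 11.2% lower and 4.23% higher in that comparison, and genes under 1000 reads 20.7% and 7.45%. The 149 long intergenic RNAs in that range gave 23.5% and 10.1%, so their share lower was near that of genes under 1000 reads. In the wild type 18 were 2-fold lower and 11 were 2-fold higher, 10.5% and 6.43%. The shares among all genes were 7.33% and 3.07% there, and among genes under 1000 reads 14.5% and 5.49%. Among the 149 they were 10.7% and 7.38%, so the share lower was below that of genes under 1000 reads. Median log2 ratios were -0.21 in the knockout and -0.09 in the wild type, against -0.10 and -0.11 for all genes in the knockout and in the wild type. With TMM factors, edgeR's scaling on the bulk of genes, these medians of all genes moved to 0.00 in both genotypes. Relative to all genes, the median long intergenic RNA stood at -0.11 in the knockout and 0.02 in the wild type under totals.

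In both genotypes 9 were 2-fold lower at E18, beside 3.27% of all genes, and 0 were 2-fold higher, beside 1.02%. The 9, some of them named after their values were seen, are Gm26917, Malat1, Gm26762, AC160118.1, Gm20342, 9930038B18Rik, Gm26532, AC118476.2 and 9330104G04Rik. In the additive test of stage 3 of the 171 (1.75%) were lower and 0 were higher, beside 1.83% and 1.1% of all genes, so the share lower was that of all genes. Malat1 had a fitted log2 difference of -2.45 (SE 0.400) and an adjusted p of 0.0282 by edgeR's quasi-likelihood test. For Gm26917 the same test gave -1.73 (SE 0.182) and an adjusted p of 0.00809. Gm26762, which lies inside the glycolytic enzyme gene Gpi1 on the other strand, had 18 reads in the knockout and 11 in the wild type at E18, and 173 in the knockout and 97 in the wild type at E15. Its fitted difference was -3.56 (SE 0.689) with an adjusted p of 0.0397 by edgeR's quasi-likelihood test. Under a filter of 1 CPM in 2 libraries, edgeR's quasi-likelihood test gave adjusted p of 0.0606 for Malat1 and 0.0652 for Gm26762, and with no minimum 0.0915 for Malat1 and 0.0942 for Gm26762. Robust moderation gave 0.0818 for Malat1, an adjusted p of the same test, so those calls depend on the settings, while Gm26917 stayed between 0.00459 and 0.0497 in all edgeR fits. Gpi1 had 9775 reads in the knockout and 9440 in the wild type at E18, and 6901 in the knockout and 6995 in the wild type at E15, and its stage ratios of 0.07 in the knockout and 0.14 in the wild type did not go with those of Gm26762. The sources do not say if strand was used in counting, so reads of such overlapping genes cannot be told apart here.

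Other RNAs that were lower at E18 in both genotypes had fewer reads than Gm26917 and Malat1. AC160118.1, inside Map2k1 on the other strand, had 5 reads in the knockout and 6 in the wild type at E18, and 84 in the knockout and 60 in the wild type at E15. Gm20342, which lies 2451 bases from Ino80d, had 11 reads in the knockout and 55 in the wild type at E18, and 213 in the knockout and 115 in the wild type at E15. 9930038B18Rik, in contrast, overlaps no gene and had 55 reads in the knockout and 20 in the wild type at E18, and 112 in the knockout and 103 in the wild type at E15. All 3 had every E18 value below every E15 value.

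The RNAs with the highest stage ratios in the knockout were others than in the wild type. In the knockout the highest stage ratio was that of Gm14120, 25327 bases from the endothelial gene Cd93, with 127 reads in the knockout at E18 and 10 in the knockout at E15, against 59 in the wild type at E18 and 35 in the wild type at E15. The ratio was 2.07 in the knockout (95% interval 2.31 to 4.33) and 0.33 in the wild type (-0.17 to 1.10). 1110019D14Rik had ratios of 1.33 in the knockout and 0.53 in the wild type, from 111 reads in the knockout at E18 and 23 at E15, and 60 in the wild type at E18 and 29 at E15. In the wild type the highest were 4930555A03Rik, with 82 reads at E18 and 15 at E15, and Gm44751, with 50 and 7 reads at E18 and E15. Their ratios were 1.43 and 1.32 in the wild type and -0.30 and 0.78 in the knockout. Gm7160 (77 reads at E18 and 16 at E15 in the wild type) and C330013E15Rik (66 at E18 and 16 at E15 in the wild type) had stage ratios of -0.99 and -0.63 in the knockout. Because each of these libraries is single, the differences between genotypes in the stage ratio were not tested.

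Other classes of transcripts were compared in the same way. The TEC class of the deposited annotation, provisional transcripts that are often unspliced, had 155 genes with at least 100 reads. Of these 63 (40.6%) were 2-fold lower and 5 (3.23%) were 2-fold higher in the knockout than in the wild type at E18, with a median of -0.88. All genes gave 4.4% lower and 2.75% higher in that comparison, and genes under 1000 reads 10.1% and 5.94%. Their stage medians were -1.71 in the knockout and -0.72 in the wild type, and their median was 0.16 in the genotype comparison at E15. Sense intronic RNAs had a median of -0.66 over 19 genes and antisense RNAs of -0.27 over 95 in the E18 genotype comparison. Protein-coding genes stood at 0.00 there. TEC genes held 0.0283% of reads in the knockout (exact 95% binomial interval 0.0276% to 0.0290%) and 0.0593% in the wild type (0.0582% to 0.0604%) at E18. At E15 they held 0.119% in the knockout (0.118% to 0.121%) and 0.108% in the wild type (0.107% to 0.110%). The knockout library at E18 was thus the lowest of the 4 in the TEC share as in the long intergenic share. The part of RNA quality or of unspliced RNA in these values was not tested.

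**Figure D5:**
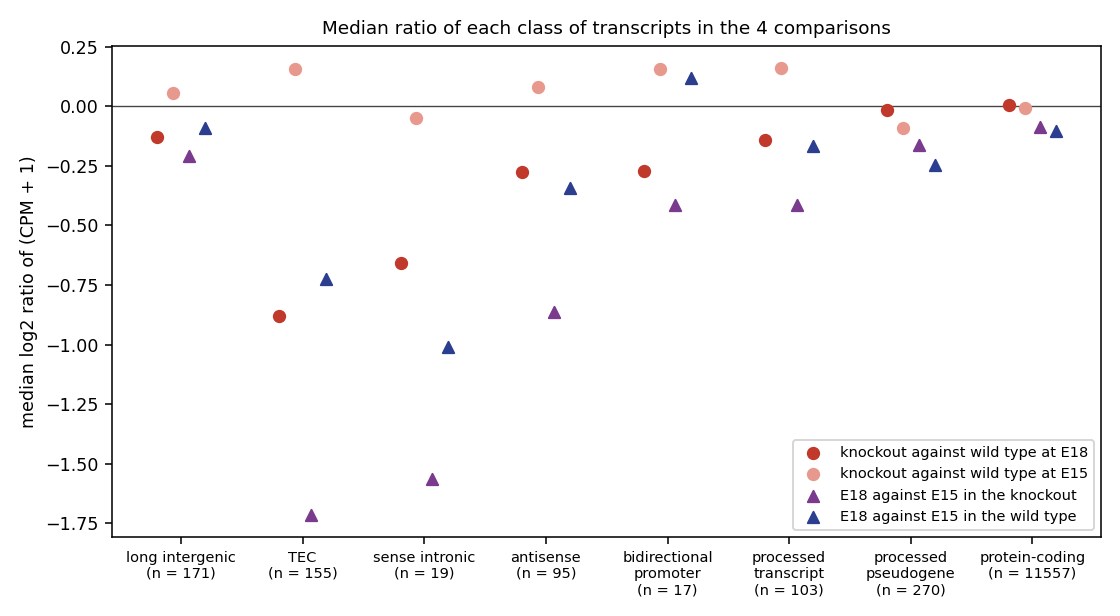
Median log2 ratio of CPM plus 1 for each transcript class with at least 100 reads per gene (number of genes below each name) in the 4 comparisons, circles for genotype and triangles for stage. In the E18 genotype comparison TEC (-0.88) and sense intronic transcripts (-0.66) have the lowest medians and long intergenic RNAs (-0.13) lie between them and protein-coding genes (0.00), and in all classes but processed pseudogenes and protein-coding genes the knockout stage median lies below the wild-type one.

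Gene structure was then compared between the 27 RNAs lower in the knockout at E18 and the other 144, as a description, since the 27 were taken from these libraries. In GENCODE M21, 55.6% of the 27 and 41.0% of the 144 had 1 or 2 exons in their longest model. A poly(A) signal, AATAAA or ATTAAA within the last 50 bases of a transcript, was found for 55.6% of the 27 and 66.7% of the 144, against 90.5% of protein-coding genes. A gene counted if any of its transcript models held a signal, and the number of models per gene was not matched between these sets. Overlap with another annotated gene on either strand applied to 51.9% of the 27 and 38.2% of the 144. A start within 1000 bases of a coding gene on the other strand applied to 11.1% of the 27 and 18.8% of the 144. Median mean levels were 2.48 CPM for the 27 and 2.93 for the 144. Among all 171, 69 overlapped another gene, 36 overlapped a coding gene and 10 held a small RNA gene. GENCODE M21 itself classes 156 of the 171 as lincRNA, 5 as antisense, 5 as bidirectional promoter RNAs and 4 as processed transcripts. The other 1, 6330403K07Rik, is classed there as protein-coding.

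Pairs of a long intergenic RNA and a coding gene that start head to head gave weak correlations of their ratios. The 27 such pairs used had both genes measured and found by symbol. Pearson's r across these pairs was 0.209 in the E18 and 0.121 in the E15 genotype comparison. For stage it was 0.262 in the knockout and 0.186 in the wild type. For 87 pairs with the nearest coding gene, counted as neither overlapping nor head to head, r was 0.224 at E18 and 0.229 at E15 for genotype. For stage r was 0.189 in the knockout and 0.341 in the wild type. These 87 include Gm17501 and Ccn1, although these lie head to head. Ccn1 is listed as Cyr61, so the search by symbol missed the head-to-head pair. For 28 pairs with an overlapping nearest coding gene, r was 0.1 at E18 and 0.103 at E15 for genotype. For stage r was -0.072 in the knockout and -0.133 in the wild type there. Points of a pair share libraries and depth, and the values are descriptions. Some coding genes, such as Dusp6 and Zfp825, stand in several of the 87 pairs, so these pairs are not independent. Of the 27 RNAs lower in the knockout at E18, 19 had a measured nearest coding gene, 1 of which was also 2-fold lower, and the median ratio of the 19 coding genes was -0.13.

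Among the head-to-head pairs, 1700018A04Rik and Foxf2 share a start region. Foxf2 encodes a forkhead factor of brain pericytes and the neighbouring Foxq1 another forkhead factor. 1700018A04Rik (ENSMUSG00000038408, chromosome 13, 31565492 to 31625792, minus strand) had 954 reads in the knockout and 1152 in the wild type at E18, and 1153 in the knockout and 929 in the wild type at E15. Foxf2 had 2320 reads in the knockout and 1931 in the wild type at E18, and 3248 in the knockout and 3100 in the wild type at E15. Stage ratios were -0.69 in the knockout and 0.01 in the wild type for the RNA, and -0.91 in the knockout and -0.97 in the wild type for Foxf2. The pair therefore had alike stage ratios in the knockout and unlike ones in the wild type. Their starts lie 24 bases apart on opposite strands, and capitals mark the bases from one start to the other in the Foxf2 promoter window (RefSeq, GRCm38.p6, chr13:31625566-31625865, plus strand).
1700018A04Rik and Foxf2: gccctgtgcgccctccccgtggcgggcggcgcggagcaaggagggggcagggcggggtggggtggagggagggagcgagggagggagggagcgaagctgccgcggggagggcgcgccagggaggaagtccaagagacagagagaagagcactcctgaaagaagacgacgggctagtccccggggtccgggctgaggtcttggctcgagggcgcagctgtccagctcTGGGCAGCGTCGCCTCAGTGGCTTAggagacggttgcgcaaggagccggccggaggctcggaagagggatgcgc
The window has 71.3% G and C and holds GGGCGG 2 times, a motif found in 35.7% of all promoter windows. Gm11377 and Gm11378, which overlap 1700018A04Rik and were chosen for that after the values were seen, had 83 and 49 reads in the knockout and 71 and 49 in the wild type at E18, and 69 and 85 in the knockout and 35 and 131 in the wild type at E15.

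Gm17501 lies head to head with Ccn1, the gene of a matricellular protein induced by serum and flow, listed in the tables as Cyr61, and was chosen after its values were seen. It had 51 reads in the knockout and 105 in the wild type at E18, and 36 in the knockout and 45 in the wild type at E15. Ccn1 had 20193 reads in the knockout and 30473 in the wild type at E18, and 13487 in the knockout and 11663 in the wild type at E15. For both genes the wild-type library at E18 was the highest, and the E18 genotype ratios were -0.97 for Gm17501 and -0.80 for Ccn1. The RefSeq starts are 92 bases apart, and capitals mark the bases between and including them (GRCm38.p6, chr3:145649827-145650126, plus strand). The start of Gm17501 in the deposited table lies 235 bases further on.
Gm17501 and Ccn1: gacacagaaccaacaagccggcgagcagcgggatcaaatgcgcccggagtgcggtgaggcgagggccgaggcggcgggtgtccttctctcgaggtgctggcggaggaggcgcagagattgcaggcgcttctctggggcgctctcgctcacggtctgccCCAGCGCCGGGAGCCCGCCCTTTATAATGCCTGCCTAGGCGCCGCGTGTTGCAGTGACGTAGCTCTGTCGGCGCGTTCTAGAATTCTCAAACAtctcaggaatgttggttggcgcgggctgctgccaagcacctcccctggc
The window held 1 TATA box, 1 cyclic AMP response element half-site and 1 GC box. Over the 56 long intergenic RNAs whose RefSeq start lies within 100 bases of the deposited one, out of 83 matched by symbol, a GC box was found in 29 windows (51.8%) and an ETS site in 14, against 35.7% and 8.86% of all windows. A TATA box was found in 10.7%, the half-site in 12.5%, an AP-1 site in 3.57%, a CCAAT box in 39.3% and a CArG box in 0.0%, against 13.6%, 7.51%, 5.2%, 37.4% and 1.63% of all windows. The median G and C content was 55.8% in the 56 windows and 52.7% in all.

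Neighbouring long intergenic RNAs did not always share a pattern. In 13 groups with gaps of up to 200 kb lay 32 of the 171. The largest held 5 RNAs on chromosome 10 between 99216442 and 99488610, around Dusp6, a phosphatase gene that limits ERK signalling; they were chosen after their values were seen. AC153821.2 and AC153821.3, which lie 197 and 407 bases from Dusp6, had 20 and 28 reads in the knockout and 68 and 99 in the wild type at E18, and 26 and 28 in the knockout and 17 and 29 in the wild type at E15. Dusp6 had 12007 reads in the knockout and 15206 in the wild type at E18, and 10619 in the knockout and 9496 in the wild type at E15. For these 3 the wild-type library at E18 was the highest, with E18 genotype ratios of -1.26, -1.45 and -0.55. AC101882.1, further away, had 235 reads in the knockout and 127 in the wild type at E18, and 189 in the knockout and 183 in the wild type at E15, so the wild-type library at E18 was the lowest there. AC153504.2 had 193 reads in the knockout and 185 in the wild type at E18, and 134 in the knockout and 80 in the wild type at E15. AC101882.2 had 47 reads in the knockout and 55 in the wild type at E18, and 31 in the knockout and 57 in the wild type at E15.

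Of the 171 long intergenic RNAs, 85 (49.7%) were past 2-fold in none of the 4 comparisons, beside 75.5% of all genes and 53.9% of genes under 1000 reads. Gm19590, 97182 bases from the VEGF receptor gene Kdr, is an example chosen after its values were seen, with 415 reads in the knockout and 328 in the wild type at E18, and 272 in the knockout and 317 in the wild type at E15. In the authors' deposited table for E18, 18 of the 171 (10.5%) are marked as significantly up and 47 (27.5%) as significantly down in the knockout, beside 4.61% and 7.36% of the 12489 genes. In the authors' deposited table for E15, 21 (12.3%) are marked up and 22 (12.9%) down, beside 5% and 4.94% of these genes. The share marked among genes under 1000 reads, the nearer background, was not counted. How those marks were tested is not stated, and each rests on 1 library on either side.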

How the data were processed

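RNA from 4 groups of 1 library each was analysed. Per the file headers the authors deposited raw counts per gene, CPM, a fold ratio of knockout over wild type, its log2 value and a p-value, in 1 table for each stage. HTSeq 0.6.0, TopHat2 2.0.12, Bowtie2 2.2.3 and the build mm9 stand in the submitters' processing notes without a role, yet start and end matched GENCODE M21 (GRCm38) for 159 of the 171 members, and GRCm38 coordinates are printed.

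Counts of the 16181 genes in both tables were divided by library totals. Ratios are log2 of CPM plus 1, called at 2-fold. Exact (Clopper-Pearson) 95% intervals cover counting error only, since reads carry no molecular identifiers, and 0 reads allow up to 3. Intervals of a median are over genes, which are not replicates.

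The additive test was edgeR 4.0.16's quasi-likelihood test of stage and genotype on 12489 genes with at least 100 reads, with Benjamini-Hochberg adjustment at 0.05, and DESeq2 1.42.0 as an alternative, in R 4.3.3. The edgeR test and the ratios with their intervals were tried on simulated data, and DESeq2 was not. Without replicates, p-values of this test rest on 1 residual degree of freedom and shared dispersions. Promoters and microRNAs are RefSeq's (GRCm38.p6).

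Members named are the 12 of highest mean CPM, up to 6 at either end of each comparison past 2-fold, those passing the additive tests or past 2-fold at both stages, and members of the lists of known RNAs. The members and lists were chosen with earlier results of these data known.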

Additional observations from a re-analysis of the deposited data

Results flagged for a closer look

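Smkr-ps moved in opposite ways at the 2 stages, past 2-fold in each. Its log2 ratio of knockout over wild type was -1.39 at E18, from 8 reads in the knockout and 49 in the wild type, and 1.30 at E15, from 47 in the knockout and 9 in the wild type. With 1 library in each group the difference between the stages was not tested.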

How the results depend on the processing

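Among recomputed counts and medians, 44 counts moved by more than 1.5 times. All medians stayed within the interval of the reported median, but the small ones changed sign in 3 cases: genotype at E15 was -0.01 with no minimum, and stage in the wild type was 0.01 at 400 reads and 0.02 when centred on all genes (chosen after seeing the data). Counts below are of long intergenic RNAs past 2-fold unless stated, in the order of genotype at E18, genotype at E15, stage in the knockout and stage in the wild type. A pseudocount of 5 CPM gave 0 higher and 4 lower, 0 and 0, 0 and 12, and 0 and 3. A pseudocount of 0.5 CPM gave 13 higher in the knockout at E18, 14 higher at E15 and 28 lower with stage in the wild type. A minimum of 400 reads left 43 genes, of which 0 were higher and 5 lower, 0 and 2, 2 and 10, and 0 and 5. No minimum, over 473 genes, gave 22 and 54, 22 and 26, 33 and 79, and 19 and 29. At 1.5-fold the counts were 24 and 50, 32 and 28, 30 higher in the knockout with stage, and 28 and 47. Without the RNAs that overlap another gene, an alternative chosen after seeing the data, 102 remained, with 5 higher and 13 lower at E18, 6 lower at E15, and 23 and 9 lower with stage in the knockout and in the wild type. In the additive test of stage, DESeq2 gave 1 higher and 9 lower, TMM factors 1 higher and 3 lower, robust moderation 2 lower, and filters of 1 CPM in 2 libraries or of no minimum 1 lower each. Of the 48 ratios of single genes named at the ends of the comparisons, 37 fell under 2-fold with a pseudocount of 5 CPM and 11 stayed past it, with the sign kept in all; TMM factors, DESeq2 size factors, centring and a pseudocount of 0.5 CPM left all 48 past 2-fold. Pseudocounts weigh heavily because the median member lies at 2.87 CPM, and the other minimums and thresholds change which genes count; the cause of the DESeq2 difference was not tested. No paired analysis was possible because each group has 1 library, and leaving out a replicate would empty a group.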
